A study of Mus musculus with 8 samples.

Results

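The genes described here are 9 that target enzymes to glycogen or build and break it down: Ppp1r3b, Ppp1r3c, Ppp1r3d, Ppp1r3g, Gys1, Gbe1, Pygl, Pygb and Gyg. They were taken as every probe on the array whose transcript accession belongs to a gene on this list, which gave 11 probes for the 9 genes, out of 39429 probes and of 14476 genes tested in the whole series. The list was drawn up after earlier results of these data had shown Ppp1r3c and Ppp1r3g lower with GW4064, so its members were chosen on this contrast, and their differences between the treatments are given as a description that supports nothing.

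The samples were primary cultures of kidney proximal tubule cells, grown to confluence from digested cortex of male C57/BJ mice aged 6 weeks. What was plated was mostly, not purely, tubules. In serum-free medium, 4 samples received DMSO, the solvent, and 4 received 1 uM GW4064, a synthetic agonist of the bile acid receptor FXR, both for 24 h. RNA of each sample was labelled with Cy3 and hybridised to 1 array. Separate animals or cultures behind the replicates are not named, so errors and p-values cover the spread among these samples, part or all of which may be technical.

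Glycogen is the branched store of glucose in animal cells. Glycogenin starts each particle by attaching glucose to itself, glycogen synthase lengthens the chains, the branching enzyme adds branch points, and glycogen phosphorylase releases glucose phosphate from the chain ends. The Ppp1r3 genes encode subunits that hold protein phosphatase 1 on the glycogen particle, where it switches the synthase on and the phosphorylase off. The proximal tubule is known for making glucose and normally stores little glycogen.

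The targeting subunits Ppp1r3c and Ppp1r3g had the largest differences of the list, both lower with GW4064 and both measured near the background of the arrays. Pygl, the liver form of phosphorylase, followed at 1.48-fold lower and Gbe1, the branching enzyme, at 1.32-fold lower. The targeting subunit Ppp1r3b and the synthase Gys1 were 1.16-fold and 1.15-fold lower, glycogenin Gyg 1.12-fold, and the brain form of phosphorylase Pygb 1.06-fold. For Ppp1r3d, another targeting subunit, the log2 fold change was -0.0042 with a standard error of 0.06. In the limma fit over all genes, with an adjusted p of 0.05 as threshold, 5 members were called lower (Ppp1r3c, Ppp1r3g, Pygl, Gbe1 and Ppp1r3b) and 0 higher, and 4 were not called. Of all genes tested, 20.8% were called, 8.95% lower and 11.8% higher. At an unadjusted p under 0.05 the same fit gave 8 members lower and 0 higher. The list was chosen by this contrast, so nothing is read from these counts. The count of 5 became 2 in each fit without DMSO replicate 1, 2 or 4 or without GW4064 replicate 1 or 2, 3 without GW4064 replicate 3, 4 without DMSO replicate 3 and 5 without GW4064 replicate 4. Ppp1r3c and Pygl were called in all 8 of these fits, Ppp1r3g in 3, Gbe1 in 2 and Ppp1r3b in 1. Ppp1r3c passed the filter on dim probes through the DMSO group alone, so its calls are not support for a difference. With normexp background correction, 1 member was called, Pygl, at a log2 fold change of -0.63. Of all genes, 14.3% to 19.5% were called in the 8 fits leaving out a sample, and 0.822% with normexp.

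All 9 members were tested, and 7 were well above background on all 8 arrays. The fitted difference was below 0 for 9 of 9 members, as for 45.8% of all genes tested. In 7 members the groups did not overlap and GW4064 was lower, as in 11.2% of all genes. The median log2 fold change over the 9 members was -0.21, against 0.01 over all genes tested. These figures too describe a list chosen with the contrast in view.

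**Figure D1:**
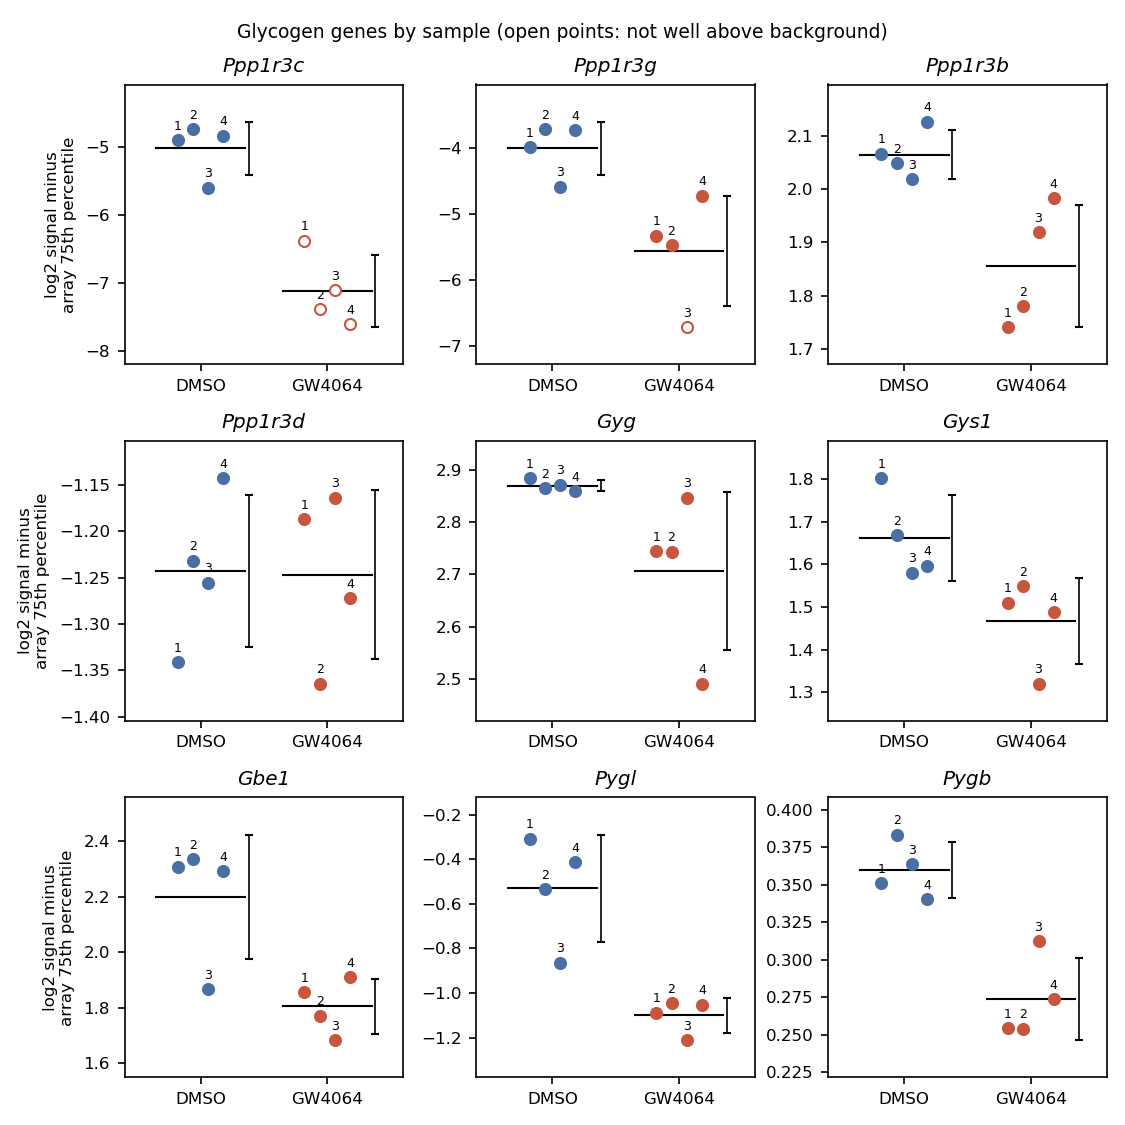
Signal of each glycogen gene in each sample, in log2 units relative to the 75th percentile of its array, for 4 DMSO samples (blue) and 4 GW4064 samples (red), numbered by replicate. Lines are group means, bars beside them are SDs, open points are not well above background, and each panel has its own axis because levels of different probes cannot be compared. All 4 GW4064 points of Ppp1r3c are open, and DMSO replicate 3 lies below the other DMSO samples for Ppp1r3c, Ppp1r3g, Gbe1 and Pygl.

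Promoter sequences are shown for the 4 members with the largest differences and for Ppp1r3d, the member with the smallest. They are the 250 bases before the start of each gene, from RefSeq on build GRCm38.p6, read 5′ to 3′ along the gene's strand. The file headers name build mm9 for the probes, so no probe positions are given. Capitals mark the letters ACGTG on either strand, a form of the core of the site bound by hypoxia-inducible factors. Other forms of that core were not searched for. The window was also searched on both strands for the FXR inverted repeat, a pair of AGGTCA half-sites facing each other across 1 base. The windows are chr19:36736605-36736854 on the minus strand for Ppp1r3c, chr13:35967656-35967905 on the plus strand for Ppp1r3g and chr12:70227684-70227933 on the minus strand for Pygl. Those of Gbe1 and Ppp1r3d are chr16:70313699-70313948 on the plus strand and chr2:178414464-178414713 on the minus strand.
Ppp1r3c: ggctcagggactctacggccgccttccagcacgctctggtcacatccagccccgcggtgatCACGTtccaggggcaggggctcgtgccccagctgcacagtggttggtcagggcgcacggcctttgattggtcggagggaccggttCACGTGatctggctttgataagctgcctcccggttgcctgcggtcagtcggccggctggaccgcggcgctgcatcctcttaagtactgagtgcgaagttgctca
Ppp1r3g: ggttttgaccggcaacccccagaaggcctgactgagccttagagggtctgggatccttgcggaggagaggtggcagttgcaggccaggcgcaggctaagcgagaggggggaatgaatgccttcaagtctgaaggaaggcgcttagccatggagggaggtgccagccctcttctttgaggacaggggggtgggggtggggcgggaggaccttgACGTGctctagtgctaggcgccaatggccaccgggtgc
Pygl: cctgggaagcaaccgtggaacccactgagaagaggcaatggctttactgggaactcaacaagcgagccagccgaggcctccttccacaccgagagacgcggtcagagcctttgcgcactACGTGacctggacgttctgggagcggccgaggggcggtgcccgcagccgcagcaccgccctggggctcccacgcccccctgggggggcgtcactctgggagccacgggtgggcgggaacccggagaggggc
Gbe1: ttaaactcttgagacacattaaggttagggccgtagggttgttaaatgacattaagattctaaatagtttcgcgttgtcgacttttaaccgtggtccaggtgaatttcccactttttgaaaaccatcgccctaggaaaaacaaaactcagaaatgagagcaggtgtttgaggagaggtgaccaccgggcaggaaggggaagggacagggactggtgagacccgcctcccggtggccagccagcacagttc
Ppp1r3d: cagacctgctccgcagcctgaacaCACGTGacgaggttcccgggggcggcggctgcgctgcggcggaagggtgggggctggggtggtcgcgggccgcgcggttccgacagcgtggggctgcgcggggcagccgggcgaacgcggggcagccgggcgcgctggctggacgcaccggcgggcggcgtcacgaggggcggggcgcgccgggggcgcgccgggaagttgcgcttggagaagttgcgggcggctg

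RefSeq promoters were matched for 8 of the 9 members. The letters ACGTG were found in 5 of these 8 windows, against 16.6% of 32851 RefSeq promoters of the same length. Ppp1r3c held 3 matches at 2 places, Ppp1r3d 2 matches at 1 place, and Ppp1r3g, Pygl and Pygb 1 each; Gbe1, Gys1 and Gyg held none. The paired matches of Ppp1r3c and Ppp1r3d are the 2 strands of the E-box CACGTG, which contains ACGTG on both strands and was present in 6.02% of all promoters. It was thus present in the members with the largest and the smallest difference, Ppp1r3c and Ppp1r3d. The FXR inverted repeat was found in 0 of 8 windows and in 2 of all promoters. Its half-site AGGTCA was found in Pygl alone (14.0% of all promoters), where it overlaps the ACGTG match. The cAMP response element TGACGTCA (1.55% of all promoters) and the TATA box TATAAA (12.4%) were found in none of the 8. The windows held between 48.8% and 79.2% G and C, against a median of 52.4% over all promoters. A match is a run of letters and not a measured site.

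Among the targeting subunits, Ppp1r3c encodes protein targeting to glycogen, which also holds the synthase and the phosphorylase on the particle. Its processed signals, the background-subtracted spot brightness on a linear scale, were 49.2, 58.8, 31.8 and 66.3 in DMSO replicates 1 to 4. They were 20.4, 8.29, 9.88 and 6.17 in GW4064 replicates 1 to 4. DMSO replicate 3 was the lowest DMSO sample and GW4064 replicate 1 the highest GW4064 sample, and the groups did not overlap. The probe was well above background on all 4 DMSO arrays and on 0 of 4 GW4064 arrays, so the level under GW4064 was not determined. Set against the higher of its own signal and the dimmest signal well above background on each array, Ppp1r3c was 2.47-fold lower with GW4064. That floor is not the limit of this probe, so 2.47 is not a strict lower bound. In GW4064 replicate 1 Ppp1r3c lay at -6.38, above the floor of -6.79 (log2 relative to the 75th percentile), and was still not well above background. Its fitted log2 fold change of -2.09 ± 0.28 (SE, n = 4 per group) rests on signals that were not well above background. Under normexp background correction that value was -1.19.

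Ppp1r3g encodes a targeting subunit that in liver follows feeding and fasting. Its processed signals were 92.8, 119.7, 64.5 and 142.5 in DMSO replicates 1 to 4 and 42.2, 31.1, 12.9 and 45.4 in GW4064 replicates 1 to 4. GW4064 replicate 3 was the lowest sample and the only one not well above background. The highest GW4064 sample lay 0.14 below the lowest DMSO sample on the log2 scale, so the groups did not overlap, by a margin smaller than either SD. On that scale the mean was -4.01 ± 0.41 with DMSO and -5.56 ± 0.84 with GW4064 (SD, n = 4), relative to the 75th percentile of the array. The log2 fold change was -1.55 ± 0.40 (SE), or 2.94-fold lower. Left out in turn, the samples gave values between -1.83 and -1.17, the latter without GW4064 replicate 3.

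Ppp1r3b, the targeting subunit known best from liver, was well above background everywhere. Its log2 levels relative to the array's 75th percentile were 2.07, 2.05, 2.02 and 2.13 with DMSO and 1.74, 1.78, 1.92 and 1.98 with GW4064, in replicate order. The groups did not overlap, with 0.04 between the lowest DMSO and the highest GW4064 sample. Its log2 fold change was -0.21 ± 0.06 (SE, n = 4 per group). The difference was -0.30 on slide 1, which held replicates 1 and 2 of both groups, and -0.12 on slide 2, which held replicates 3 and 4. Its call was lost in 14 of 21 alternatives, among them the fit with the replicate number as a block and 7 of 8 fits leaving out a sample.

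Ppp1r3d encodes a targeting subunit found in many tissues. Its levels were -1.34, -1.23, -1.26 and -1.14 with DMSO and -1.19, -1.36, -1.16 and -1.27 with GW4064 on the same log2 scale, and the groups overlapped throughout. The log2 fold change was -0.0042 ± 0.06 (SE), 0.01 on slide 1 and -0.02 on slide 2. Among the 4 targeting subunits on the list, the log2 fold changes thus ran from -2.09 for Ppp1r3c to -0.0042 for Ppp1r3d. Whether these sizes differ from one another was not tested, since all come from the contrast that chose the list.

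For the enzymes that build glycogen, Gyg had 2 probes, both lower with GW4064. The brighter had log2 levels between 2.86 and 2.88 with DMSO and between 2.49 and 2.85 with GW4064, where replicate 4 was the lowest. Its log2 fold change was -0.16 ± 0.07 (SE, n = 4 per group), and -0.09 without GW4064 replicate 4. The groups did not overlap for this probe, by 0.01, and overlapped for the other (-0.15). Gys1, the form of glycogen synthase used outside liver, also had 2 probes, with differences of -0.20 and -0.19. Levels of the brighter were 1.80, 1.67, 1.58 and 1.60 with DMSO and 1.51, 1.55, 1.32 and 1.49 with GW4064. The groups of both Gys1 probes did not overlap. Gys1 was not called in the fit used here, but was called in 4 of 21 alternatives, namely median centring, the mean of its probes, slide as a block and a trended robust fit.

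Gbe1, the branching enzyme, had log2 levels of 2.31, 2.33, 1.87 and 2.29 with DMSO and 1.86, 1.77, 1.68 and 1.91 with GW4064. DMSO replicate 3 stood 0.33 below the DMSO mean and inside the range of the GW4064 samples, so the groups overlapped by 1 sample. The log2 fold change was -0.40 ± 0.11 (SE, n = 4 per group) and -0.51 without DMSO replicate 3. Slide 1 gave -0.51, and slide 2, where DMSO replicate 3 was hybridised, gave -0.28.

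For the enzymes that break glycogen down, Pygl levels were -0.31, -0.53, -0.86 and -0.41 with DMSO and -1.09, -1.05, -1.21 and -1.05 with GW4064. DMSO replicate 3 was again the lowest of its group, and the groups did not overlap, with 0.18 between them. The log2 fold change was -0.57 ± 0.11 (SE, n = 4 per group), with -0.65 on slide 1 and -0.49 on slide 2. Pygb levels lay between 0.34 and 0.38 with DMSO and between 0.25 and 0.31 with GW4064. Its groups did not overlap, but the log2 fold change was -0.09 ± 0.03 (SE) and was not called. Both phosphorylase genes were thus on the same side of 0, and Pygl had the larger difference.

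**Figure D2:**
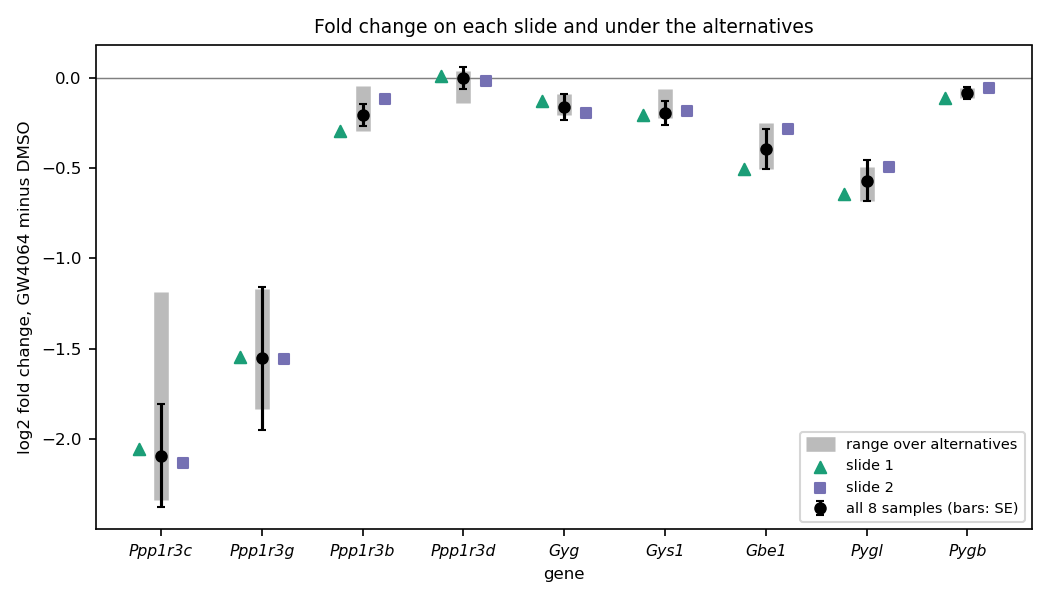
Log2 fold change of each glycogen gene, GW4064 minus DMSO, over all 8 samples (black, bars are SE), on slide 1 alone (triangles, 2 samples per group) and on slide 2 alone (squares, 2 samples per group), with the range over all alternative settings in grey. Ppp1r3c was at -2.05 on slide 1 and -2.13 on slide 2, and Ppp1r3d lay at 0.01 and -0.02.

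On slide 1 8 of 9 members were lower with GW4064, the exception being Ppp1r3d. On slide 2 9 of 9 were lower, among them Ppp1r3d at -0.02 ± 0.08 (SE). The median log2 fold change over all genes was 0.01 on slide 1 and 0.02 on slide 2. The members were chosen on the contrast over these same arrays, so nothing is read from the slides having the same sign. DMSO samples always took places 1 and 2 on a slide and GW4064 samples places 3 and 4, so place and treatment cannot be told apart.

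The spread within the DMSO group came largely from 1 sample for some members and not for others. Replicate 3 was the lowest of the 4 DMSO samples in 6 of 9 members, as in 24.9% of all genes tested. Its deviation from the DMSO mean was -0.58 for Ppp1r3c, -0.58 for Ppp1r3g, -0.33 for Gbe1 and -0.33 for Pygl on the log2 scale. For Ppp1r3b and Gys1 it was -0.05 and -0.08, and for Ppp1r3d, Gyg and Pygb it lay between -0.01 and 0.0042. The median deviation of all genes in that sample was 0.0016. These 4 members with the largest deviation of DMSO replicate 3 were also the 4 with the largest difference between treatments. This was noticed in the values and was not tested, and a low DMSO sample makes the treatment difference smaller. Within the GW4064 group the extreme samples of Ppp1r3c and Ppp1r3g were not the same: Ppp1r3c was highest in replicate 1 (0.74 above the mean) and lowest in replicate 4 (-0.49), whereas Ppp1r3g was highest in replicate 4 (0.84) and lowest in replicate 3 (-1.16).

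**Figure D3:**
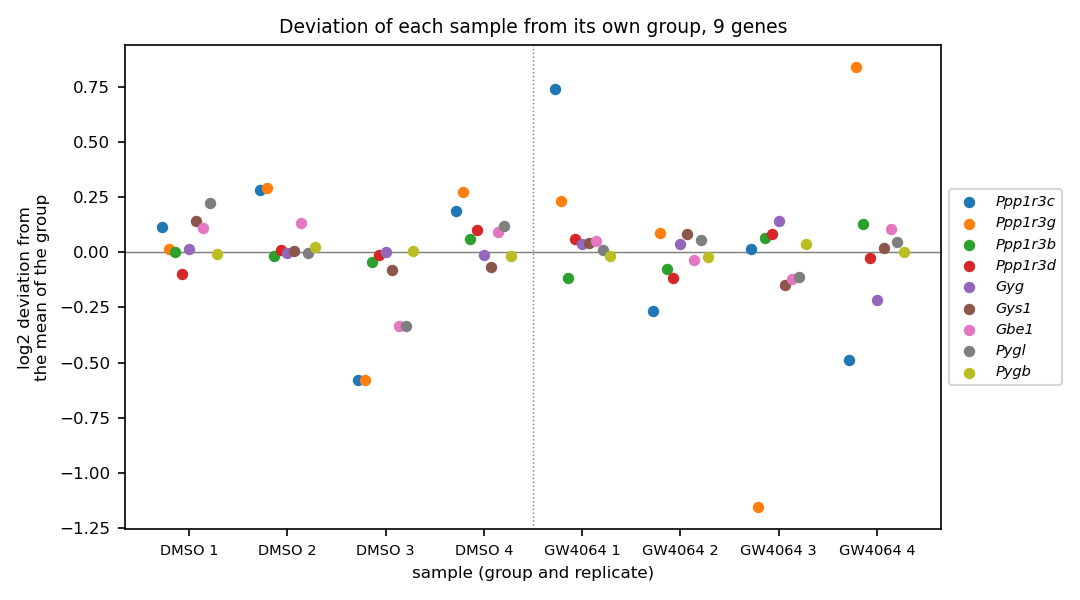
Deviation of each sample from the mean of its own group, on the log2 scale, for the 9 glycogen genes (colours), with DMSO samples left of the dotted line and GW4064 samples right of it. In DMSO replicate 3 Ppp1r3c and Ppp1r3g both lie at -0.58 and Gbe1 and Pygl both at -0.33.

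The genes whose profile over the 8 samples lay closest to a member were found by the root mean square difference of log2 values after each gene's mean was taken away. For Ppp1r3c they were Hif3a, a hypoxia-inducible factor subunit (0.33), Fst, the activin antagonist follistatin (0.42), and Ankrd34b (0.43). For Ppp1r3g they were Ldc1 (0.25), Egln3, a prolyl hydroxylase of hypoxia-inducible factors (0.26), and 2610528A11Rik (0.34). Hif3a had a log2 fold change of -2.42 ± 0.19 and Egln3 one of -1.30 ± 0.28 (SE). Ldc1 passed the background test with DMSO (4 of 4 arrays) but not with GW4064 (0 of 4), so no fold change is given for it and its likeness rests in part on such dim signals. The measure of likeness includes the difference between treatments. For Ppp1r3c it also rests on GW4064 signals that were not well above background, and for Ppp1r3g on that of GW4064 replicate 3.

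Of the other genes of glycogen metabolism, from 4 lists holding 32 genes, 29 were tested, 3 were called lower, 6 higher and 20 were not called. That is 9 of 29 beside 20.8% of all genes, and their median log2 fold change was 0.02. The count was 5 without DMSO replicate 2, DMSO replicate 4 or GW4064 replicate 2, and 0 with normexp background correction (limma, 2 at an unadjusted p under 0.05). Those fits without a sample called 14.3% to 15.2% of all genes, and normexp 0.822%. Adjusted p values in this and the next paragraph are from limma with Benjamini-Hochberg adjustment over all genes.

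Among the other targeting subunits and core enzymes, Pygm, the muscle form of phosphorylase, had a log2 fold change of 0.26 ± 0.12 and Ppp1r3f one of -0.10 ± 0.07, and neither passed. Ppp1r3e, another targeting subunit, was at 0.71 ± 0.33 and was not called; 2 of its 4 DMSO arrays were well above background. Gys2, the liver synthase, and Ppp1r3a, the muscle targeting subunit, were not well above background on any array, and nor was Epm2a, laforin. A further 11 tested genes were listed for the control of glycogen, mainly by kinases and phosphatases. Of these, Ppp1ca, a catalytic subunit of protein phosphatase 1, rose (0.15 ± 0.04, adjusted p = 0.0263, limma). The catalytic subunits Ppp1cb and Ppp1cc had log2 fold changes of 0.02 and -0.04, and the 5 phosphorylase kinase genes lay between -0.04 and 0.09, none of them called.

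Genes of the glucose phosphate supply moved in both directions. Hk1, a hexokinase, and Pgm1, which interconverts glucose phosphates, fell by 0.26 ± 0.06 and 0.25 ± 0.06 on the log2 scale (adjusted p = 0.0169 and 0.0281, limma). G6pc, glucose-6-phosphatase, which releases free glucose, rose by 1.45 ± 0.23 (2.72-fold, adjusted p = 0.0033) and Slc37a4, which carries its substrate into the endoplasmic reticulum, by 0.46 ± 0.08 (adjusted p = 0.0039, limma). G6pc3, the widely expressed phosphatase, rose by 0.18 ± 0.05 (adjusted p = 0.0328, limma). For Hk3, another hexokinase, no DMSO array was well above background. Its level with GW4064 was 1.42-fold above the same kind of floor as for Ppp1r3c, which is not a strict bound. Hk3 is among the 6 genes called higher, but it passed the filter on dim probes through the GW4064 group alone, so its call is not support for a difference. Ugp2, which makes the UDP-glucose that the synthase uses, lay at -0.02 ± 0.07 on that scale and was not called. Gaa, the lysosomal enzyme that digests glycogen, rose by 0.14 ± 0.04 (adjusted p = 0.0434, limma). All kept probes of Hk1, G6pc3 and Gaa agreed in sign with the probe used.

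**Figure D4:**
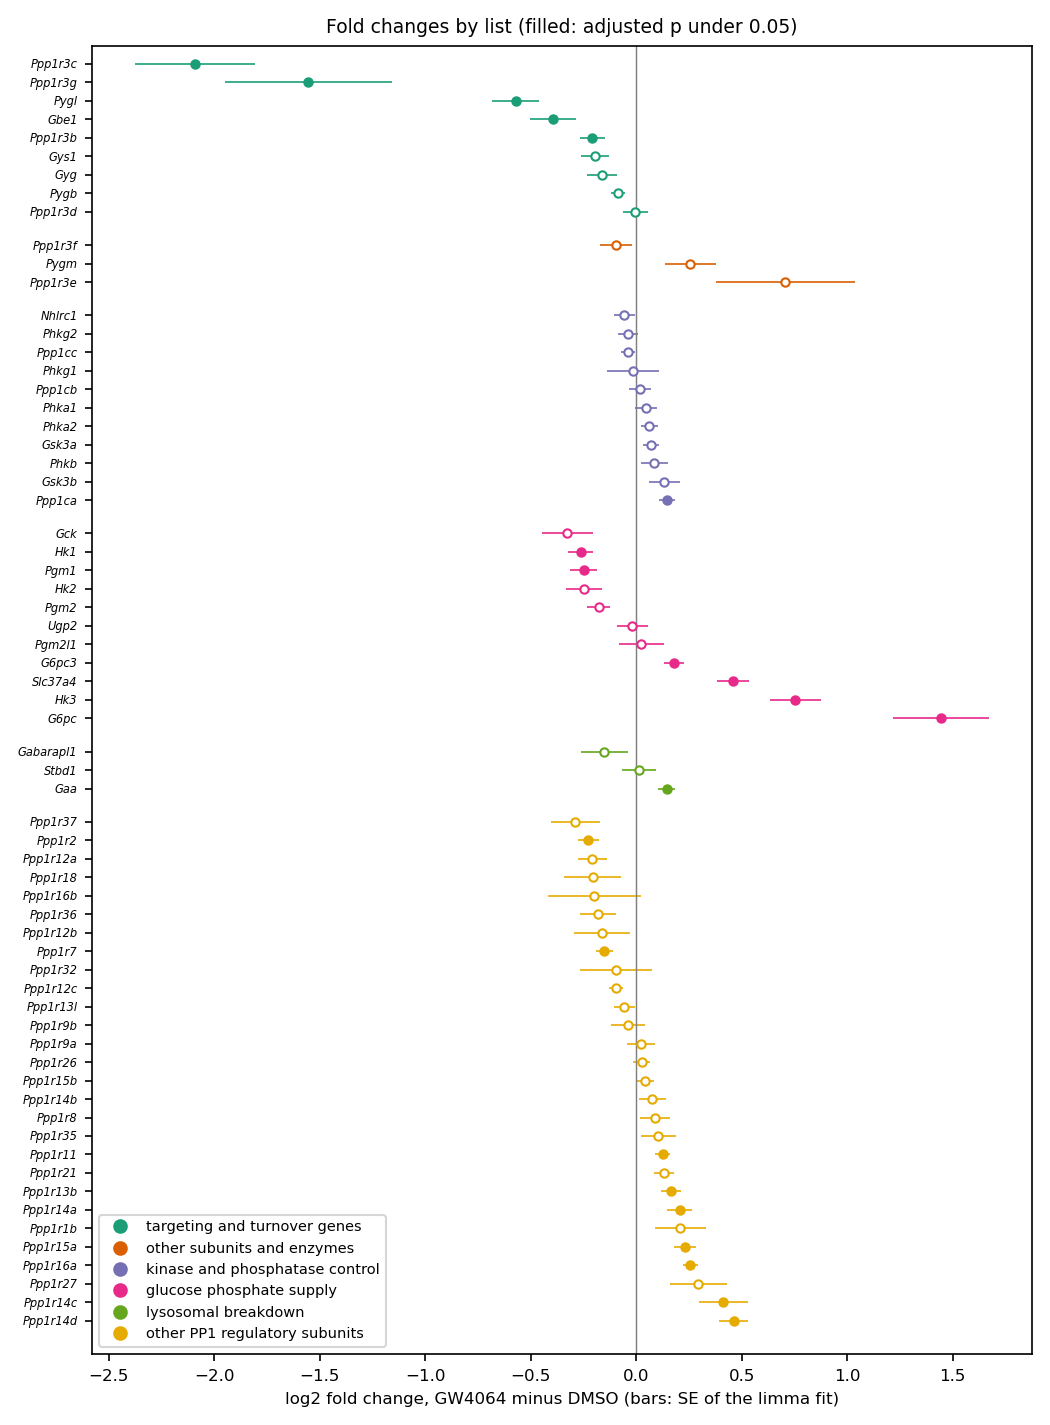
Log2 fold change, GW4064 minus DMSO, of the glycogen targeting and turnover genes and of the other listed genes shown, with the SE of the limma fit as bars and filled points at an adjusted p under 0.05. The points of Ppp1r3c and Hk3 rest on signals not well above background in 1 group; Ppp1r3c and Ppp1r3g lie lowest, at -2.09 and -1.55, and G6pc highest, at 1.45.

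Regulatory subunits of protein phosphatase 1 that do not target glycogen were listed to show the rest of the family. Of 28 tested, 7 were called higher and 2 lower, beside 20.8% of all genes called, and the median log2 fold change was 0.03. The count of 9 was 3 without DMSO replicate 2 or 4, 4 without DMSO replicate 3 and 5 without GW4064 replicate 2 or 3. It was 5 with slide or with the replicate number as a block, and 0 with normexp (limma, 4 at an unadjusted p under 0.05). In these settings other than normexp 14.3% to 19.7% of all genes were called, and 0.822% with normexp. Higher were the inhibitors Ppp1r14d (0.46 ± 0.07), Ppp1r14c (0.41 ± 0.12) and Ppp1r14a (0.21 ± 0.06), the stress-induced subunit Ppp1r15a (0.23 ± 0.05), and Ppp1r16a (0.26 ± 0.04), Ppp1r13b (0.16 ± 0.05) and Ppp1r11 (0.13 ± 0.04). Lower were Ppp1r2, an inhibitor (-0.23 ± 0.05), and Ppp1r7 (-0.15 ± 0.04). Of the 5 kept probes of Ppp1r2, 2 went the other way, as did 1 of 2 of Ppp1r7, and with the mean of each gene's probes limma called 0 subunits lower (4 at an unadjusted p under 0.05). The largest fall in this list was smaller than those of Ppp1r3c, Ppp1r3g, Pygl and Gbe1 in fitted size, a comparison that was not tested. Those glycogen genes come from a list chosen on this contrast, so nothing is read from the ranking.

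The 75th percentile of the processed signal lay between 1203 and 1900, and no spot of a member was saturated. All 16 proximal tubule markers were measured, and 12 rose with GW4064 and 0 fell, with a list mean higher by 0.89 (exact two-sided permutation test, p = 0.0286, the smallest that 4 against 4 can give, 0.04 adjusted over 7 lists). Markers of other cells moved too, and in each list with 0 called lower by limma 0 were lower at an unadjusted p under 0.05. Of 9 tested endothelial markers 4 rose and 0 fell (summed log2 level 2.42 to 2.65 with DMSO, 2.62 to 2.80 with GW4064, Tek never well above background). Among the 11 tested markers of leukocytes and macrophages, 4 were called higher and 0 lower (3.48 to 3.66 and 3.85 to 4.06). Ptprc went the other way without overlap of the groups (log2 fold change -0.90 ± 0.54, SE) and was not called. Of 10 fibroblast and pericyte markers 3 rose and 1 fell (6.37 to 6.74 and 6.60 to 6.82, Lum never), and of 9 markers of other nephron segments and podocytes 0 rose (1 at an unadjusted p under 0.05 in limma) and 3 fell (2.55 to 2.85 and 2.57 to 2.92, Calb1 never). The list means of endothelium and leukocytes were higher by 0.32 and 0.22 (exact permutation p = 0.0286, 0.04 adjusted), and that of fibroblasts by 0.14 (exact permutation p = 0.0857, 0.1 adjusted). The mean of the other segments differed by -0.14 (exact permutation p = 0.114, 0.114 adjusted). Of liver, muscle and fat, tissues rich in glycogen genes, the markers Alb, Apoa1, Cps1, Ckm, Myh4, Adipoq, Lep and Plin1 were never well above background. Among the tested liver and muscle markers 2 of 3 in each list rose and 0 fell, with list means higher by 0.68 and 0.33 (exact permutation p = 0.0286, 0.04 adjusted). The summed levels were 1.39 to 2.01 with DMSO and 2.61 to 2.89 with GW4064 for liver, and -0.56 to -0.36 and -0.04 to 0.22 for muscle. For fat they were -5.55 to -4.50 and -5.72 to -5.14. The part of these markers in the differences of the glycogen genes was not tested, and in such bulk samples fewer cells of a type and less RNA per cell cannot be told apart.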

How the data were processed

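Each array's deposited file gives the intensity of every spot after background subtraction in Feature Extraction (version 10.7.3.1 per the file headers). Feature Extraction 10.7 and limma are the tools listed, per the submitters' processing notes. The authors also deposited a log2 table, whose 8 columns share a median of 6.598 as after quantile normalization, with no gene centring; it served as an alternative. How it was scaled is not given in the sources used here.

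Control spots (1377 of 44397) and outlier spots (98 to 174 per array) were left out, spots of a probe averaged as log2, and the array's 75th percentile taken away. A probe needed a signal well above background on at least 4 of 8 arrays. Accessions were named through the GRCm38.p6 gene table (27234 of 39429 probes), and the brightest probe stood for a gene. The comparison was a limma model (version 3.58.1, R 4.3.3; lmFit, eBayes, Benjamini-Hochberg over 14476 genes, threshold 0.05), tested on simulated data. SEs are of this fit. The number of arrays limits the precision.

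Members and lists were chosen with earlier results of these data known. Named were every member, each called gene of the other lists, and the 3 genes nearest to Ppp1r3c and to Ppp1r3g over 8 samples; the other named genes (uncalled pathway genes and markers) were chosen after their values were seen. Some listed genes are counted but not reported singly here. Alternatives covered scaling, normexp on median spot signals (the column present), filters, probe summaries, blocks, slides, the log2 table, the variance model and leaving out each sample.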

Additional observations from a re-analysis of the deposited data

Results flagged for a closer look

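Of 40 groups of 4 arrays examined (the 11 probes of the glycogen genes, 7 marker list means and 2 array measures), 1 had a sample apart from the other 3, or 2.50%, where chance gives about 1 in 20. It was Gbe1 in DMSO replicate 3, at 1.87, against 2.29 to 2.33 in the other DMSO samples (log2 signal minus the 75th percentile).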

How the results depend on the processing

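All 9 members kept the sign of their log2 fold change under every alternative run, except Ppp1r3d, which ranged from -0.14 to 0.04. Under normexp background correction 119 genes were called, 1 member, 0 other glycogen genes (2 at an unadjusted p under 0.05 in limma) and 0 other phosphatase subunits (4 unadjusted). Slide 1 alone gave 966, 3, 3 and 1, and slide 2 alone 220, 0 (2 unadjusted), 1 and 0 (10 unadjusted), with 2 samples per group. With no filter on dim probes 2 members, 5 other glycogen genes and 4 phosphatase subunits were called. The share of all genes called was 10.5% in that setting, against 20.8% in the fit used here. With the filter on all 8 arrays 3 members were called, since Ppp1r3c and Ppp1r3g fail it, beside 21.8% of all genes. The phosphatase subunits numbered 5 with median centring, beside 15.8% of all genes, and 5 with each probe on its own, beside 15.4% of all probes kept. The cause of these differences in counts was not tested. Leaving out each sample gave 2076 to 2827 genes, 2 to 5 members, 5 to 12 other glycogen genes and 3 to 6 phosphatase subunits. Whether same-numbered samples were paired is not stated. Over all genes they had r of -0.13, -0.03, 0.19 and -0.02, within the -0.20 to 0.20 of differently numbered samples. Replicate 3 was the lowest sample of both groups for Ppp1r3g, Gbe1, Pygl and Gys1. For Ppp1r3c and Ppp1r3b it was the lowest of the DMSO group only. Whether this reflects a pairing was not tested. With the replicate number as a block 2322 genes, 4 members, 6 other glycogen genes and 5 phosphatase subunits were called. That block gave Ppp1r3g an SE of 0.19 (0.40 without it) and Gbe1 one of 0.07 (0.11), but larger SEs for Ppp1r3d and Pygb. With slide as a block they were 2856, 6, 8 and 5. Ppp1r3c and Ppp1r3g were not well above background on every array.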
